A study of Mus musculus with 6 samples.

Results

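The organic ion transporters of the families Slc22, Slco and Slc47a were described across 6 arrays of mouse kidney. The members are all genes with a non-control probe whose name in the scanner files begins with Slc22a, Slco or Slc47a followed by a number, which gave 57 probes for 40 genes, out of 41174 probes for 27343 genes on the array. Of the 40 genes, 34 were well above background on at least 2 of the 6 arrays and were tested, and 30 were so on all 6. Slc22a3, Slc22a20, Slco1b2, Slco6b1 and Slco6d1 were not well above background on any array, and Slco5a1 was so on 1 array, so these 6 genes were not tested.

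The groups were kidney of Gpr97-deficient mice after renal ischaemia/reperfusion injury (1 array), wild-type kidney after the same injury (2 arrays), Gpr97-deficient kidney after sham surgery (1 array) and wild-type kidney after sham surgery (2 arrays). Gpr97 is the older name of Adgrg3, an adhesion G protein-coupled receptor, and the samples are labelled male. The strain, age, targeted allele, duration of ischaemia and collection time are not stated in the labels. Nor do they state whether each array stands for its own animal, so every p-value measures the spread between these samples, which may be partly technical.

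In proximal tubule cells, organic anion transporters of the Slc22 family take up drugs, uraemic solutes and urate from the blood side in exchange for dicarboxylates, and other members of the family act on the urine side. Organic cation transporters of the same family bring cations in, and the Slc47a transporters pass them on into the urine. The Slco family carries larger anions such as steroid conjugates, prostaglandins and thyroid hormones, and the carnitine transporters of Slc22 recover carnitine. In bulk kidney RNA, fewer cells of a type and less RNA per cell cannot be told apart.

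Each signal is the log2 processed intensity with the 75th percentile of its array subtracted. Between 63.0% and 71.1% of the probes were well above background per array, 0 spots were saturated, and the number of arrays limits the precision. Slide 1 held wild-type injured array 2 and wild-type sham array 1, and slide 2 held the other 4 arrays, so both Gpr97-deficient arrays were on slide 2. Adgrg3, which checks the genotype labels, stood at -5.75 and -5.38 on the Gpr97-deficient injured and sham arrays, against 0.02 to 1.18 on the 4 wild-type arrays. Wild-type injured array 1 went against its male label, with Xist, the RNA of the inactive X chromosome, at 4.05, while the other 5 arrays held at most -5.45, and with 4 of 4 Y-linked genes not well above background. Sex and animal cannot be told apart on that array. Some counts and medians over members are also given without it, and values of single genes include it unless stated.

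Slc22a28, Slc22a30 and Slc22a29 are neighbours in a cluster of rodent organic anion transporter genes on chromosome 19, and their promoters are shown because the first pair had nearly the same signal pattern over the arrays while Slc22a29 did not. The sequences are from RefSeq (GRCm38.p6, minus strand) and end at or shortly before the annotated start. Capitals mark bases of Slc22a30 and Slc22a29 that differ from Slc22a28 or have no counterpart in it.
Slc22a28, chr19:8131983-8132142: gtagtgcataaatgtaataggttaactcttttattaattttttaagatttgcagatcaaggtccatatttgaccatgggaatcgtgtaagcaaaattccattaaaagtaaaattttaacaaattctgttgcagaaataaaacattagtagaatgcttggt
Slc22a30, chr19:8405112-8405271: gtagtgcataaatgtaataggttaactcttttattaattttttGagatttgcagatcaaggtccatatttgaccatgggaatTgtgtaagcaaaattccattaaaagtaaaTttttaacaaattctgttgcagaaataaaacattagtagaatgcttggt
Slc22a29, chr19:8218901-8219042: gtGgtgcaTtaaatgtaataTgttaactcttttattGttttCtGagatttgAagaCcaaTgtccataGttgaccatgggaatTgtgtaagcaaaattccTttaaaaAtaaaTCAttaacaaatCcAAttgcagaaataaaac

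Over the whole window of 250 bases before to 50 bases after the start, the Slc22a30 promoter was identical to that of Slc22a28 at 98.0% of 294 aligned bases, and the Slc22a29 promoter at 81.0% of 263 aligned bases. The array probes of the first pair are distinct oligonucleotides, whose longest shared run was 5 of 60 bases.
Probe of Slc22a28, chr19:8136836-8136895 in mm9: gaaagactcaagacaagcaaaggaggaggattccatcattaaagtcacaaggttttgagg
Probe of Slc22a30, chr19:8411250-8411309 in mm9: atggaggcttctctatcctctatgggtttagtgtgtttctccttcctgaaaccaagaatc
Whether either probe also binds the other gene's transcript was not tested, and the 2 signals are uncertain to that extent.

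Slc22a6 and Slc22a8, neighbours on chromosome 19 that encode the main organic anion exchangers of the blood side of the proximal tubule, both hold the letters GTTAAT, an arm of the palindrome bound by HNF1 factors, in the promoter. The stretches are shown with these letters in capitals (GRCm38.p6, plus strand).
Slc22a6, chr19:8617913-8617972: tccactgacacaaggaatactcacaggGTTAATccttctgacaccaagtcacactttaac
Slc22a8, chr19:8593074-8593133: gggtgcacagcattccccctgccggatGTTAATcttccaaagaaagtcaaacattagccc
On either strand, GTTAAT was found in the promoters of 4 of the 34 members with an entry in the RefSeq table (Slc22a6, Slc22a8, Slc22a29 and Slco1b2) and in 7.10% of all 32851 promoters of the same length. A match of letters is a description and not a site.

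After injury, most organic ion transporters had lower signals than after sham surgery, and a few were higher. Over both genotypes 29 of the 34 tested members were lower and 5 were higher, and 11129 of all 19615 genes tested were lower. The median log2 change was -0.55 over the members and -0.055 over all genes. By limma with Benjamini-Hochberg adjustment over all genes, 0 of the 34 members passed an adjusted p of 0.05, and 0.0% of all genes did. At an unadjusted p under 0.05, 10 members were lower (6.71% of all genes) and 0 were higher (5.56% of all genes). On all 3 injured arrays 12 members lay below all 3 sham arrays, which 13.1% of all genes did, and 1 member lay above them, which 9.68% of all genes did. These counts take the probe used for each gene, and other probes of Slc22a17, Slco1a5 and Slco2a1 overlapped. Leaving out wild-type injured array 1, which carried Xist, gave 19 members lower on both remaining injured arrays than on all sham arrays, beside 21.2% of all genes, and a median change of -0.73. Leaving out wild-type injured array 2 instead gave a median of -0.32, and leaving out wild-type sham array 2 gave -0.40.

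Within wild type, 30 of the 34 tested members were lower after injury, as were 10892 of all 19615 genes. The median over the members was -0.55, 0 passed after adjustment, and 8 were lower at an unadjusted limma p under 0.05 (3.17% of all genes). In the Gpr97-deficient pair, which has 1 array each, 22 were lower and 12 higher, with a median of -0.19. Of all 19615 genes, 10985 were lower in that pair, with a median of -0.053. There 5 members were at least 2-fold lower (5.33% of all genes) and 3, Slc22a7, Slco2b1 and Slco6c1, were at least 2-fold higher (4.56% of all genes).

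**Figure D1:**
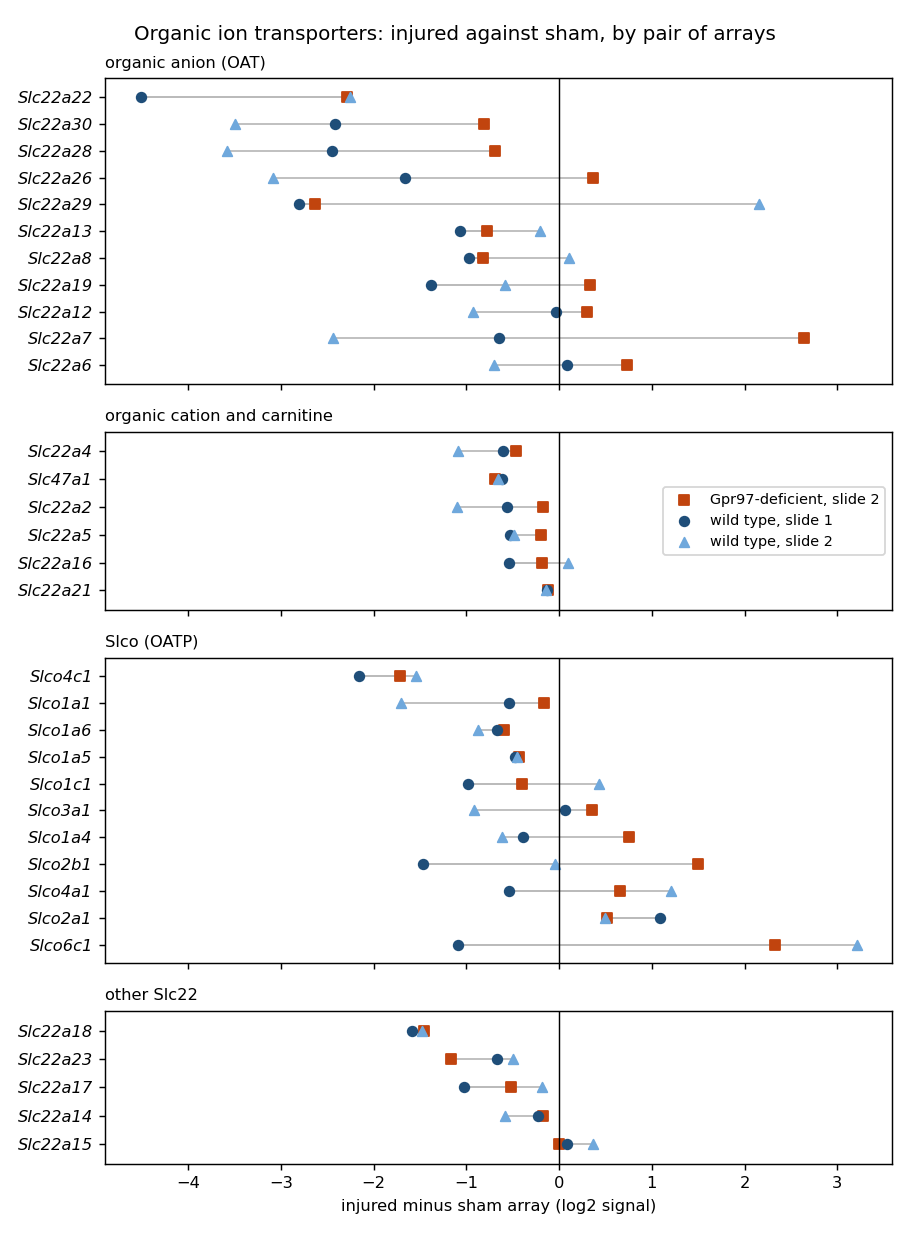
Difference in log2 signal between an injured and a sham array (horizontal axis) for 33 tested members, grouped by transporter class, in 3 pairs of arrays of the same slide and genotype. Slc22a18, Slc22a22 and Slco4c1 lie at -1 or lower in all 3 pairs, and Slco2a1 and Slc22a15 lie right of 0 in all 3, Slc22a15 by 0.002 in the Gpr97-deficient pair.

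Slco4c1, known from human and rat as the Slco transporter of digoxin and thyroid hormone on the blood side of the proximal tubule, separated the injured from the sham arrays. Its signal was -2.07 on the Gpr97-deficient injured array and -1.85 and -2.11 on the wild-type injured arrays, against -0.36 on the Gpr97-deficient sham array and 0.06 and -0.31 on the wild-type sham arrays. All injured arrays lay below all sham arrays, with means of -2.01 ± 0.14 after injury and -0.20 ± 0.23 after sham surgery (SD, n = 3 each). The change was -1.80 (SE 0.18) with a limma adjusted p of 0.236, which ranged from 0.105 to 0.769 over the alternative settings. Another Slco4c1 probe gave -2.02. The probe (chromosome 1, 98713362 to 98713421 in mm9) was well above background on all 6 arrays. The pairs gave -1.71 in Gpr97-deficient kidney and -2.16 (slide 1) and -1.54 (slide 2) in wild type.

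Slc22a22, which encodes a prostaglandin-specific transporter of mouse kidney, had the largest change of the tested members for injury over both genotypes. Its signal was -1.49 on the Gpr97-deficient injured array and -0.42 and -3.02 on the wild-type injured arrays, against 0.80 on the Gpr97-deficient sham array and 1.48 and 1.84 on the wild-type sham arrays. The groups did not overlap, although the wild-type injured arrays were 2.61 apart. The change was -3.02 (SE 0.73, limma adjusted p 0.297).

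Slc22a28 and Slc22a30, whose substrates are little known, lay low on every injured array. Slc22a28 stood at 2.26 on the Gpr97-deficient injured array and at 1.30 and 1.78 on the wild-type injured arrays, against 2.95 on the Gpr97-deficient sham array and 4.24 and 4.88 on the wild-type sham arrays. Slc22a30 stood at 2.31 on the Gpr97-deficient injured array and at 1.62 and 1.90 on the wild-type injured arrays, against 3.12 on the Gpr97-deficient sham array and 4.31 and 5.12 on the wild-type sham arrays. Both genes had a change of -2.24 over both genotypes (SE 0.55 and limma adjusted p 0.301 for Slc22a28, SE 0.52 and 0.286 for Slc22a30). As a description over the 6 arrays, Pearson's r between these genes was 0.997, and Slc22a30 was the gene most like Slc22a28 among all genes well above background on every array. Pearson's r between Slc22a28 and Slc22a29, whose promoters are set out above, was 0.08. Between Slc22a28 and Slc22a26 it was 0.907, and their promoters were identical at 76.2% of only 84 aligned bases. Whether likeness of promoters goes with likeness of signals was not tested.

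Slc22a29 split the wild-type injured arrays. It stood at -2.04 on the Gpr97-deficient injured array and at 1.21 and -2.30 on the wild-type injured arrays, against 0.59 on the Gpr97-deficient sham array and 0.51 and -0.94 on the wild-type sham arrays. The high injured value belongs to wild-type injured array 1, which carried Xist. Its change was -1.1 (SE 1.1, limma adjusted p 0.733).

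Slc22a26, another gene of the chromosome 19 cluster, was low on all injured arrays and also on the Gpr97-deficient sham array. It stood at -2.27 on the Gpr97-deficient injured array and at -2.81 and -2.06 on the wild-type injured arrays, against -2.63 on the Gpr97-deficient sham array and -0.39 and 0.28 on the wild-type sham arrays. In wild type the change was -2.38 (SE 0.42, limma adjusted p 0.769).

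Slc22a6 did not follow these genes. It stood at 6.87 on the Gpr97-deficient injured array and at 6.49 and 6.80 on the wild-type injured arrays, against 6.14 on the Gpr97-deficient sham array and 6.71 and 7.19 on the wild-type sham arrays. The groups overlapped, the change was 0.04 (SE 0.30, limma adjusted p 0.98), and its sign turned when wild-type sham array 1 was left out. Leaving out either Gpr97-deficient array leaves the same contrast, the change within wild type, which was -0.31. Among genes well above background on all arrays, those with the pattern most like Slc22a6 over the 6 arrays were A430057L12Rik (Pearson's r 0.975), Cdh4 (0.974), Pxdn (0.970), Esm1 (0.952) and Fam53c (0.950), given as a description.

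Slc22a8 stood at 3.22 on the Gpr97-deficient injured array and at 4.37 and 2.62 on the wild-type injured arrays, against 4.03 on the Gpr97-deficient sham array and 3.59 and 4.26 on the wild-type sham arrays. On this probe the array that carried Xist was the highest of all 6, and the other injured arrays were below all sham arrays. On another probe that array stood at -1.09, and all injured arrays lay below all sham arrays (-0.76, -0.88 and -0.62). A further probe again had that array highest. The change on the probe used was -0.56 (SE 0.51, limma adjusted p 0.699), and the other probes gave -0.92 and -0.67.

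**Figure D2:**
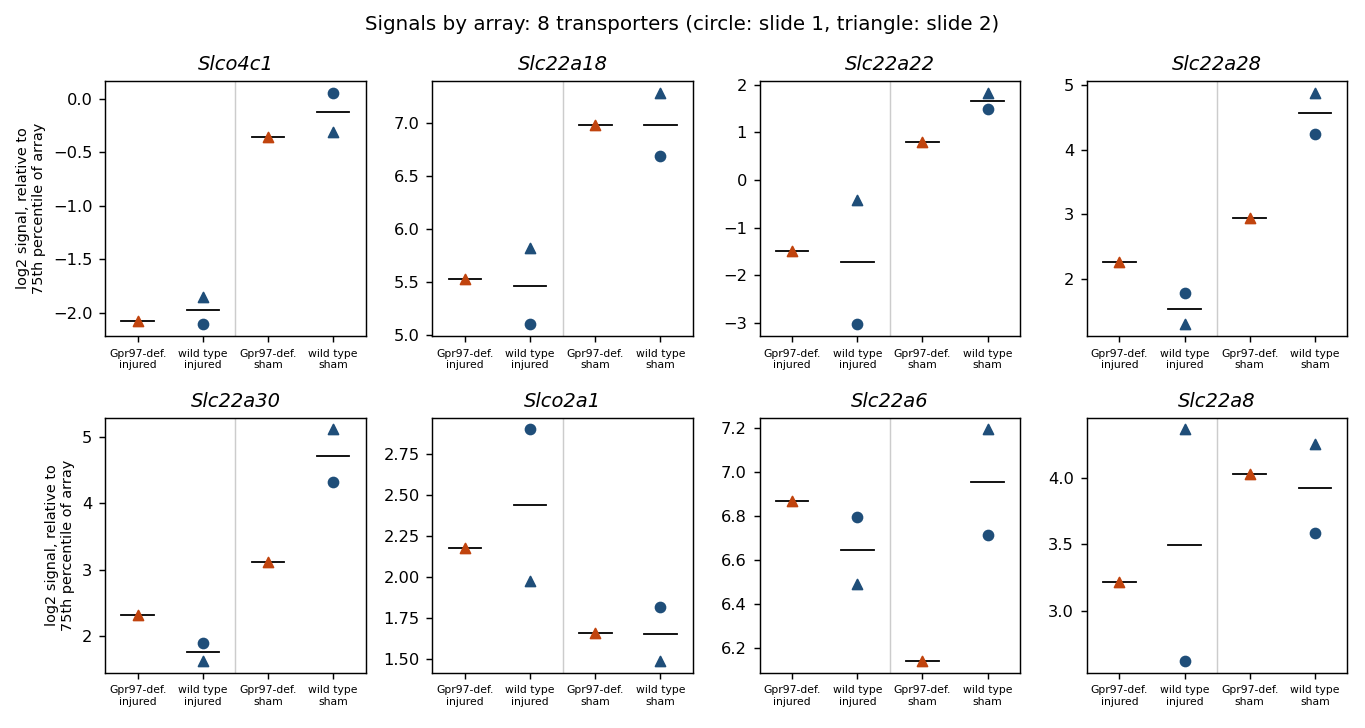
Log2 signal, with each array's 75th percentile subtracted (vertical axes, which differ between panels) for 8 members on each array, injured groups left of sham groups, with lines at group means. Slco4c1, Slc22a18, Slc22a22, Slc22a28 and Slc22a30 lie lower on all 3 injured arrays than on all 3 sham arrays, Slco2a1 lies higher, and Slc22a6 and Slc22a8 overlap.

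Of the urate transporters, Slc22a12, the urate reabsorber of the urine side, stood at 1.59 on the Gpr97-deficient injured array and at 1.37 and 2.09 on the wild-type injured arrays, against 1.29 on the Gpr97-deficient sham array and 2.12 and 2.30 on the wild-type sham arrays. The groups overlapped through the low Gpr97-deficient sham array. Slc22a13, which carries urate and nicotinate, stood at 3.84 on the Gpr97-deficient injured array and at 4.61 and 3.29 on the wild-type injured arrays, against 4.61 on the Gpr97-deficient sham array and 4.37 and 4.82 on the wild-type sham arrays. Here too the array that carried Xist was the highest of the injured arrays, and it lay within the range of the sham arrays.

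The organic cation and carnitine transporters all had lower means after injury, by small amounts. All 7 tested members of this class were lower over both genotypes, with a median change of -0.57, and Slc22a2 and Slc22a4 were among those lower on every injured array than on every sham array. Slc22a2, the uptake transporter of the blood side that also carries creatinine, stood at 3.97 on the Gpr97-deficient injured array and at 3.91 and 3.87 on the wild-type injured arrays, against 4.15 on the Gpr97-deficient sham array and 4.44 and 5.0 on the wild-type sham arrays. The 3 injured arrays lay within 0.11 of each other, below sham arrays that were 0.85 apart, and the change was -0.61 (SE 0.24, limma adjusted p 0.415).

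Slc22a4, which carries ergothioneine, stood at 1.53 on the Gpr97-deficient injured array and at 1.76 and 1.49 on the wild-type injured arrays, against 1.99 on the Gpr97-deficient sham array and 2.09 and 2.85 on the wild-type sham arrays. Its change was -0.72 (SE 0.26, limma adjusted p 0.387). Slc47a1, the exporter of cations into the urine, stood at 5.14 on the Gpr97-deficient injured array and at 5.67 and 5.0 on the wild-type injured arrays, against 5.83 on the Gpr97-deficient sham array and 5.62 and 6.33 on the wild-type sham arrays. It was lower in all 3 pairs, by -0.69 in the Gpr97-deficient pair and by -0.62 and -0.66 in the wild-type pairs, although the array groups overlapped.

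The carnitine transporters differed less. Slc22a5, the high-affinity carnitine transporter, stood at 2.18 on the Gpr97-deficient injured array and at 2.33 and 1.69 on the wild-type injured arrays, against 2.37 on the Gpr97-deficient sham array and 2.22 and 2.81 on the wild-type sham arrays. Slc22a21, a carnitine transporter described in mouse, stood at 0.10 on the Gpr97-deficient injured array and at 0.33 and -0.32 on the wild-type injured arrays, against 0.21 on the Gpr97-deficient sham array and -0.18 and 0.48 on the wild-type sham arrays. Slc22a16, a carnitine transporter best known from testis, stood at -2.56 on the Gpr97-deficient injured array and at -1.92 and -2.58 on the wild-type injured arrays, against -2.37 on the Gpr97-deficient sham array and -2.04 and -2.01 on the wild-type sham arrays. The groups overlapped for all 3 carnitine transporters.

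Slco2a1, the prostaglandin transporter, was the only tested member that was higher on every injured array than on every sham array on the probe used. It stood at 2.18 on the Gpr97-deficient injured array and at 1.98 and 2.90 on the wild-type injured arrays, against 1.66 on the Gpr97-deficient sham array and 1.81 and 1.49 on the wild-type sham arrays. The change was 0.70 (SE 0.29, limma adjusted p 0.432). Another probe of the gene gave 0.19 and its groups overlapped, with -0.931 on the Gpr97-deficient injured array against -0.923 on wild-type sham array 2. The Slco1a genes, rodent transporters of bile acids and steroid conjugates, were lower or overlapped. Slco1a6 stood at 2.42 on the Gpr97-deficient injured array and at 3.0 and 2.78 on the wild-type injured arrays, against 3.01 on the Gpr97-deficient sham array and 3.45 and 3.88 on the wild-type sham arrays. Its groups did not overlap, by a margin of 0.013, and its change was -0.71 (SE 0.19, limma adjusted p 0.323).

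Slco1a1 stood at 0.53 on the Gpr97-deficient injured array and at 0.81 and 0.69 on the wild-type injured arrays, against 0.69 on the Gpr97-deficient sham array and 1.23 and 2.51 on the wild-type sham arrays. Its pairs gave -0.16 in Gpr97-deficient kidney and -0.54 (slide 1) and -1.71 (slide 2) in wild type. Another Slco1a1 probe, well above background on 4 arrays, differed widely, with 5.68 in the Gpr97-deficient pair and -1.07 and -8.69 in the wild-type pairs. Slco1a4 stood at -3.13 on the Gpr97-deficient injured array and at -3.88 and -4.19 on the wild-type injured arrays, against -3.89 on the Gpr97-deficient sham array and -3.80 and -3.26 on the wild-type sham arrays. Slco1a5 stood at -4.44 on the Gpr97-deficient injured array and at -4.35 and -4.16 on the wild-type injured arrays, the last not well above background, against -4.01 on the Gpr97-deficient sham array and -3.68 and -3.89 on the wild-type sham arrays. Of these 3 genes, Slco1a5 had groups that did not overlap, with a change of -0.45 (SE 0.16, limma adjusted p 0.376). Another probe of Slco1a5, well above background on 5 arrays too, went the other way, with a difference of 0.12 between injured and sham arrays and groups that overlapped.

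The remaining Slco genes overlapped between injured and sham arrays. Slco3a1 stood at 4.72 on the Gpr97-deficient injured array and at 4.15 and 4.37 on the wild-type injured arrays, against 4.36 on the Gpr97-deficient sham array and 4.31 and 5.07 on the wild-type sham arrays. Slco4a1, which carries thyroid hormone, stood at 2.56 on the Gpr97-deficient injured array and at 2.11 and 2.64 on the wild-type injured arrays, against 1.90 on the Gpr97-deficient sham array and 3.19 and 0.90 on the wild-type sham arrays, which were 2.28 apart. Slco1c1, a thyroxine transporter known from brain vessels, and Slco6c1, known from testis, were well above background on 4 and 3 arrays. Slco1c1 stood at -4.59 on the Gpr97-deficient injured array and at -4.36 and -6.56 on the wild-type injured arrays, against -4.19 on the Gpr97-deficient sham array and -5.58 and -4.79 on the wild-type sham arrays. Slco6c1 stood at -4.46 on the Gpr97-deficient injured array and at -4.50 and -4.60 on the wild-type injured arrays, against -6.79 on the Gpr97-deficient sham array and -3.52 and -7.70 on the wild-type sham arrays. Slco1c1 was not well above background on wild-type injured array 2 and wild-type sham array 1, and Slco6c1 was not so on wild-type injured array 2, the Gpr97-deficient sham array and wild-type sham array 2.

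Among the Slc22 genes outside the anion, cation and carnitine classes, Slc22a18, an imprinted gene whose product resembles organic cation transporters, separated the groups. It stood at 5.52 on the Gpr97-deficient injured array and at 5.81 and 5.10 on the wild-type injured arrays, against 6.98 on the Gpr97-deficient sham array and 6.69 and 7.29 on the wild-type sham arrays. All injured arrays lay below all sham arrays, and the 3 pairs were close together, at -1.46 in the Gpr97-deficient pair and at -1.59 and -1.48 in the wild-type pairs. The change was -1.51 (SE 0.28, limma adjusted p 0.262), and another probe gave -1.71. Slc22a18, Slc22a22 and Slco4c1 were the 3 members at least 2-fold lower in all 3 pairs, which 0.775% of all genes were, and 0 members were at least 2-fold higher in all 3, beside 1.16% of all genes.

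Slc22a23, whose substrate is not known, and Slc22a17, a receptor for lipocalin 2, were also lower on every injured array than on every sham array on the probe used. The change was -0.78 (SE 0.22, limma adjusted p 0.328) for Slc22a23 and -0.58 (SE 0.26, limma adjusted p 0.456) for Slc22a17. On another Slc22a17 probe the groups overlapped, with -2.45 on wild-type injured array 1 against -2.48 on wild-type sham array 1. Lcn2 itself, the lipocalin 2 gene, stood at 5.52 on the Gpr97-deficient injured array and at 3.36 and 5.39 on the wild-type injured arrays, against -0.71 on the Gpr97-deficient sham array and 0.84 and -3.52 on the wild-type sham arrays. Slc22a14 (change -0.33) and Slc22a15 (change 0.15) overlapped. Where a member had several probes well above background on all arrays, 0 of 11 genes had probes with opposite signs, and the widest gap was 0.70, for Slc22a15. That count holds neither Slco1a1 nor Slco1a5.

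**Figure D3:**
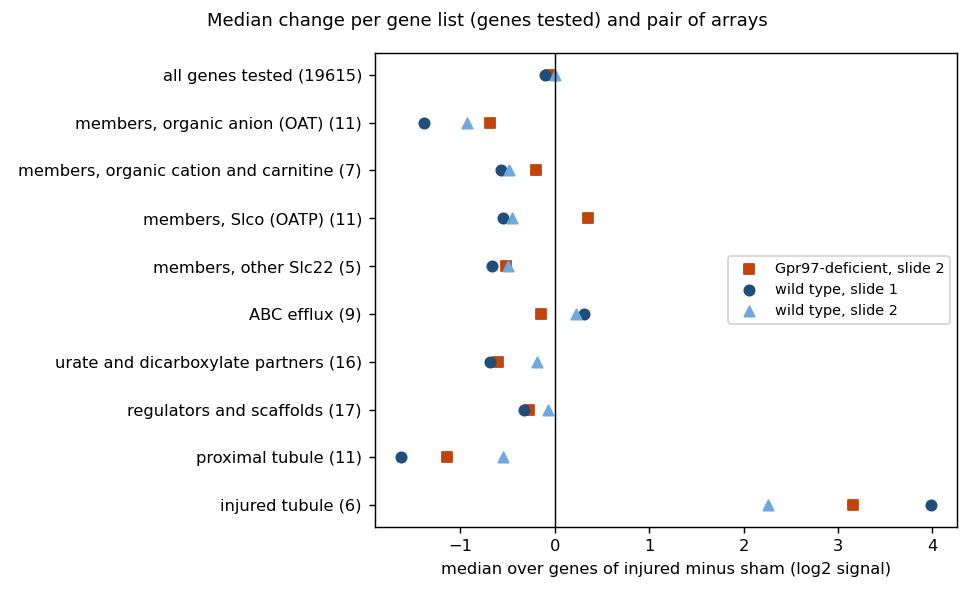
Median over genes of the log2 difference between an injured and a sham array (horizontal axis) for all genes, 4 classes of members, 3 lists of partner genes and 2 marker lists, in 3 pairs of arrays. The organic anion transporters lie between -1.38 and -0.69, the proximal tubule markers between -1.63 and -0.54, and the injured tubule markers above 2.

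Genes that work with these transporters were set beside them as lists. Of 9 ABC efflux transporters, which pump conjugates and drugs out of the cell, 6 were higher and 3 lower, with a median of 0.076, and 0 passed the adjusted threshold. Abcc3, an exporter of conjugates to the blood side, had a change of 2.41 (SE 0.77, limma adjusted p 0.356), and Abcg2, an exporter of urate into the urine, had -0.42 (SE 0.22). The Abcc3 pairs were uneven, with 0.67 in Gpr97-deficient kidney and 2.025 (slide 1) and 4.535 (slide 2) in wild type. The largest held the array that carried Xist. Abcc6, well above background on 4 arrays, had a change of -0.90 and Abcb1b, a drug efflux pump, one of 0.63. Among 16 tested partner transporters, of urate, dicarboxylates and other solutes, 15 were lower over both genotypes and 1 was higher, with a median of -0.41, and 0 passed. The higher one was Slc13a1, the sulfate reabsorber, with a change of 1.19 (SE 0.21, limma adjusted p 0.262). The smallest decrease, of Slc17a2, was -0.008, and in the wild-type pair of slide 2, 9 of the 16 were lower and 7 higher. Slc5a8 (-1.71) and Slc5a12 (-1.24), sodium-coupled monocarboxylate transporters of which Slc5a12 is also among the proximal tubule markers, and Slc16a9 (-1.02) were lower.

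Of 17 regulators and scaffolds, 12 were lower and 5 higher, with a median of -0.22, and 0 passed. The 4 with the largest moderated t were Esr1, the oestrogen receptor gene, at -1.04 (SE 0.20), Ghr, the growth hormone receptor gene, at -0.72 (SE 0.18), Hnf4a, a nuclear receptor of proximal tubule and liver, at -0.65 (SE 0.17), and Pdzk1, the scaffold of the brush border that binds several of these transporters, at -0.92 (SE 0.34). All 4 were lower in all 3 pairs.

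Markers of the proximal tubule, the segment that holds most of these transporters, were lower after injury as well. Of 12 listed markers 11 had a probe and were tested, all 11 were well above background, and all 11 were lower over both genotypes, with a median of -1.24. Their mean signal was 5.47 on the Gpr97-deficient injured array and 6.06 and 5.13 on the wild-type injured arrays, against 6.68 on the Gpr97-deficient sham array and 6.73 and 6.85 on the wild-type sham arrays. The 6 markers of the injured tubule were higher, with a median of 2.88. The part of fewer or altered proximal tubule cells in the transporter signals was not tested. Within the same arrays Slc22a6 had a change of 0.04 and Kap, an androgen-dependent protein of the proximal tubule, one of -0.41, while the other 10 proximal tubule markers lay between -2.11 and -0.82.

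Set by genotype, the uptake transporters for organic anions were lower in Gpr97-deficient kidney, and most of that difference lay on its sham array. Over both surgeries all 11 tested organic anion transporters had lower means in Gpr97-deficient than in wild-type kidney, and 10116 of all 19615 genes did. The smallest differences were -0.047 for Slc22a13 and -0.085 for Slc22a8. The median was -0.45 over the 11, beside -0.17 over the 34 tested members and -0.010 over all genes. Within sham kidney 8 of the 11 were lower and 3 higher, and within injured kidney 6 were lower and 5 higher. The mean signal of the 11 was 1.58 on the Gpr97-deficient injured array, against 2.06 and 1.31 on the wild-type injured arrays, and 1.91 on the Gpr97-deficient sham array, against 2.93 and 3.43 on the wild-type sham arrays. The sham arrays of the genotypes were thus apart, and the injured arrays overlapped. By limma 0 members passed the adjusted threshold (0.0% of all genes), and Slc22a19 and Slco1a6 had an unadjusted p under 0.05 in the lower direction (1.88% of all genes). Leaving out the Gpr97-deficient sham array leaves the same contrast as within injured kidney. It gave a median of -0.044 over the 34 members. That fit turned the sign of 5 of the 11 organic anion transporters (Slc22a6, Slc22a22, Slc22a26, Slc22a28 and Slc22a30). Leaving out the Gpr97-deficient injured array leaves the contrast within sham kidney, and 3 of the 11 turned. Without wild-type injured array 1, which carried Xist, 4 of the 11 turned (Slc22a8, Slc22a13, Slc22a22 and Slc22a29). With slide as a block the genotype difference rests on slide 2 alone, so the block and slide 2 give the same estimate. Its median over the 34 members was -0.32, and the block turned the sign of 11 members. In injured kidney alone, the median difference between the Gpr97-deficient array and the wild-type arrays was -0.04, the same value as without the Gpr97-deficient sham array. It was 0.11 without the array that carried Xist.

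Slc22a7, an organic anion transporter shared with liver, was the most uneven. It stood at 2.98 on the Gpr97-deficient injured array and at 3.39 and 2.96 on the wild-type injured arrays, against 0.34 on the Gpr97-deficient sham array and 3.61 and 5.83 on the wild-type sham arrays. The injured arrays lay within 0.42 of each other, whereas the sham arrays were spread over 5.49. Injury thus gave 2.64 in the Gpr97-deficient pair against -0.65 and -2.44 in the wild-type pairs, and the difference of these effects was 4.19 (SE 1.42) with an unadjusted limma p of 0.0405 and an adjusted p of 1.

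Slc22a19, an exchanger of steroid sulfates on the urine side in mouse, was the only tested member whose 2 Gpr97-deficient arrays both lay below all 4 wild-type arrays, as for 6.52% of all genes, and 0 members lay above them on both (4.32% of all genes). It stood at 0.07 and -0.27 on the Gpr97-deficient injured and sham arrays, against 1.54 and 0.33 on the wild-type injured arrays and 1.71 and 2.12 on the wild-type sham arrays. The genotype difference was -1.53 (SE 0.48, limma adjusted p 0.993). The Gpr97-deficient sham array was at least 2-fold below both wild-type sham arrays for 5 members, Slc22a7, Slc22a19, Slc22a26, Slc22a28 and Slc22a30, and so for 1.47% of all genes. It was at least 2-fold above both for 0 members, beside 1.45% of all genes.

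The injury effect differed in direction between the genotypes for 6 members (Slc22a7, Slc22a12, Slc22a19, Slc22a26, Slco1a4 and Slco2b1), which were lower in both wild-type pairs and higher in the Gpr97-deficient pair, as were 8.2% of all genes. The opposite held for 0 members, beside 7.44% of all genes. Of the 6, Slc22a12 was lower by only -0.030 in the wild-type pair of slide 1, and Slco2b1 by only -0.048 in that of slide 2. Slco2b1, a transporter of steroid sulfates, stood at 2.11 on the Gpr97-deficient injured array and at 1.39 and 0.49 on the wild-type injured arrays, against 0.62 on the Gpr97-deficient sham array and 1.96 and 1.44 on the wild-type sham arrays. Slc22a7, Slc22a26, Slc22a28, Slc22a30 and Slco2b1 had an unadjusted p under 0.05 for a more positive injury effect in Gpr97-deficient than in wild-type kidney (0.622% of all genes), 0 members had one for a more negative effect (0.867% of all genes), and 0 passed after adjustment, with an adjusted p of 1 each. For Slc22a28 the difference of effects was 2.32 (SE 0.62), from -0.69 in the Gpr97-deficient pair against -2.45 and -3.58 in the wild-type pairs. The median difference over the 34 members was 0.28, and 0.030 when only arrays of slide 2 were used.

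Markers of blood cells were high on the Gpr97-deficient sham array. The 3 neutrophil markers with a probe had a mean signal of 3.03 on it, against -0.87 and -1.53 on the wild-type sham arrays, and the 2 red blood cell markers had 3.92 against -1.18 and -0.62. On the Gpr97-deficient injured array the neutrophil markers had 2.17 and the red blood cell markers 1.725. On the wild-type injured arrays the neutrophil markers had 2.355 and 0.94, and the red blood cell markers 2.88 and -2.19. The part of these markers in the low transporter signals of the Gpr97-deficient sham array was not tested. The 11 proximal tubule markers had a mean of 6.68 on the Gpr97-deficient sham array, against 6.73 and 6.85 on the wild-type sham arrays. The Gpr97-deficient groups have 1 array each, so genotype and array cannot be told apart within a surgery.

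Wild-type injured array 1, which carried Xist, was at least 2-fold above both other injured arrays for 4 members, Slc22a8, Slc22a19, Slc22a22 and Slc22a29, as it was for 2.77% of all genes. On another Slc22a8 probe this array stood at -1.09, less than 2-fold above the Gpr97-deficient injured array (-1.59), with wild-type injured array 2 at -2.34. Wild-type injured array 1 was at least 2-fold below both other injured arrays for 0 members, beside 1.38% of all genes. Injured tubule markers had a mean of 2.56 on it, against 3.37 on the Gpr97-deficient injured array and 3.82 on wild-type injured array 2, and their part in these transporter signals was not tested.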

How the data were processed

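Kidney RNA labelled with Cy3 was hybridised to single-colour Agilent mouse arrays. Per the file headers, the deposited scanner files hold intensity values read with Feature Extraction 10.7.1.1 (slide 1) and 10.7.3.1 (slide 2), with probe positions in mm9. Their flags for background, saturation and outliers are other columns of the deposited files and were used as given. The authors' deposited series values matched the scanner signals in rank (Spearman's rho at least 0.999, column medians 6.07 to 6.09) and were read as log2 values whose centring and exact normalization stay unknown. The submitters' processing notes name limma.

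From the files, processed intensities without control and outlier spots were taken to log2 and scaled by subtracting each array's 75th percentile. A gene took its brightest probe by mean, and 19615 genes passed the filter of 2 or more arrays well above background. Limma 3.58.1 (R 4.3.3, with data.table, version 1.17.8) fitted genotype and surgery as additive terms (3 residual degrees of freedom), or 4 group means (2 residual degrees of freedom) for effects within a genotype and for their difference, which gives lone arrays the spread of the wild-type ones. Tests are two-sided, with Benjamini-Hochberg adjustment over all genes, and the fits were tested on simulated data. Tables, promoter alignments and figures used Python 3.11.15 with pandas 2.3.3, NumPy 2.4.6, Biopython 1.88 and matplotlib 3.10.9.

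Signals on every array are given for tested members of the organic anion, organic cation and carnitine, and Slco lists, and for those with the 6 largest changes or differences between the wild-type injured arrays. Other members are given by counts, and those named were chosen after their values were seen. A part of these values is not reported here. From each partner list the 4 genes with the largest moderated t are named. The members and lists were chosen with earlier results of these data known. Slide was tested as a batch by a block and within slides. Alternatives were normexp background correction (offset 50) with quantile normalization, quantile normalization alone, the deposited values, other filters on dim probes, the mean of the probes, a variance trend with a robust prior, and leaving out each array. Of the 40 members, 34 had a promoter in RefSeq (GRCm38.p6).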

Additional observations from a re-analysis of the deposited data

How the results depend on the processing

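No member passed an adjusted limma p of 0.05 in any of the alternatives run for the 6 comparisons, and the smallest adjusted p of a member for injury over both genotypes was 0.104. Over all genes at most 3 were called. The median change of the tested members for injury over both genotypes was -0.42 with normexp and quantile normalization, -0.43 with no filter on dim probes (40 genes) and -0.35 within slide 2. For genotype over both surgeries it was -0.32 with slide as a block, which is the same estimate as within slide 2. Within slide 2 it was -0.23 for genotype in injured kidney and 0.030 for the difference of injury effects. Leaving out each array gave ranges of -0.73 to -0.32 (injury over both genotypes), -0.93 to -0.39 (injury in wild type), -0.30 to -0.044 (genotype over both surgeries), -0.23 to 0.11 (genotype in injured kidney) and 0.16 to 0.52 (difference of effects). It gave 12 to 19 members lower on every injured array, the most without wild-type injured array 1, and 1 to 3 higher, the most without wild-type sham array 1, a count chosen after seeing the data. The causes were not tested. Of single members, quantile normalization and the deposited values turned the sign of Slco2b1 for injury over both genotypes, and 11 members turned sign for genotype with slide as a block. For injury over both genotypes, Slc22a7 and Slc22a12 turned without wild-type injured array 1. Without wild-type sham array 2, 7 members turned, and without wild-type injured array 2, 6 did. No paired analysis was possible by replicate number, because the labels share none between groups, and the pairs of arrays used here share only slide and genotype. Signals over background limit the 6 members that were not tested.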
